A study of Canis lupus familiaris with 34 samples.

Results

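The genes examined here were 10 genes of the contractile apparatus that smooth muscle cells and myofibroblasts share, chosen by symbol: ACTA2, MYH11, TAGLN, CNN1, CALD1, LMOD1, SMTN, MYLK, DES and MYOCD. A feature of the deposited count table was taken when its name was the symbol itself or the symbol behind the prefix canfam4RefGene_. DES was the only gene listed in both forms, and its prefixed feature was used. All 10 genes were found among the 23768 features of the table, and all 10 were among the 19568 features tested, those that reached 100 counts over all dogs together. The lowest count of any of these genes in any dog was 216, for MYOCD.

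RNA was sequenced from the mitral valves of 34 privately owned Cavalier King Charles Spaniels, about 10 years old, a breed prone to myxomatous mitral valve disease (MMVD). The 10y-noCHF group held 19 dogs (10 females and 9 males) without congestive heart failure (CHF), at ACVIM stages A, B1 or B2, so this group was not free of valve disease. The 10y-MMVD-CHF group held 15 dogs (6 females and 9 males) at stage C, whose heart failure was caused by MMVD. Each sample was the valve of 1 dog, and no genotype or treatment was given in the labels. Stage, age and weight were not paired with single dogs and were not analysed here. The paper's CHF diagnosis drew in part on response to diuretics, so such treatment cannot be told apart from CHF status.

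In smooth muscle, actin and myosin filaments slide past each other once myosin light chain kinase has phosphorylated the myosin, and a set of actin-binding proteins organises and restrains the filaments. The resident fibroblast-like cells of a heart valve, the valve interstitial cells, carry little of this machinery when quiescent. They take on parts of it, smooth muscle actin above all, when they become activated myofibroblasts, a change well known from myxomatous valves. Vessel walls and smooth muscle bundles of the leaflet contain the same genes, and some of them are also active in heart muscle.

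Counts per dog summed to between 46185256 and 82361245. CPM here stands for a count divided by its library's total after edgeR's TMM scaling, in parts of 1e6. The features differ in whether introns were counted, so CPM levels are compared between dogs and not between genes. Markers of valve interstitial cells were detected in all dogs, with a summed level of 10 genes from 11985 to 30034 CPM in 10y-noCHF and from 13630 to 26990 CPM in 10y-MMVD-CHF. Heart muscle RNA was present in very unequal amounts. The summed level of 19 cardiomyocyte markers ran from 120 to 25439 CPM in 10y-noCHF and from 102 to 53089 CPM in 10y-MMVD-CHF. Earlier work on these data set apart a pair of 10y-MMVD-CHF dogs: CAV1047, a female with the highest heart muscle marker mean, and CAV614, a male with a summed hemoglobin level of 4285 CPM against 1030 CPM in the next dog, CAV1049. Values without both dogs are given where a result rests on them.

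The main comparison asked whether contractile genes differed between valves of dogs with and without CHF. None of the 10 genes passed the FDR threshold of 0.1 in edgeR's quasi-likelihood test with sex as a fixed effect, against 0.118% of all features. DESeq2 and limma voom also called 0 of the 10. At an unadjusted p below 0.05 edgeR listed 1 gene, MYH11, which was lower in 10y-MMVD-CHF. Of all features 6.31% had such a p, and 3.51% had it and were lower. The fitted log2 fold changes were above 0 for 5 genes and below 0 for 5, with a median of -0.02 beside 0.01 over all features. The groups overlapped for each of the 10 genes.

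**Figure D1:**
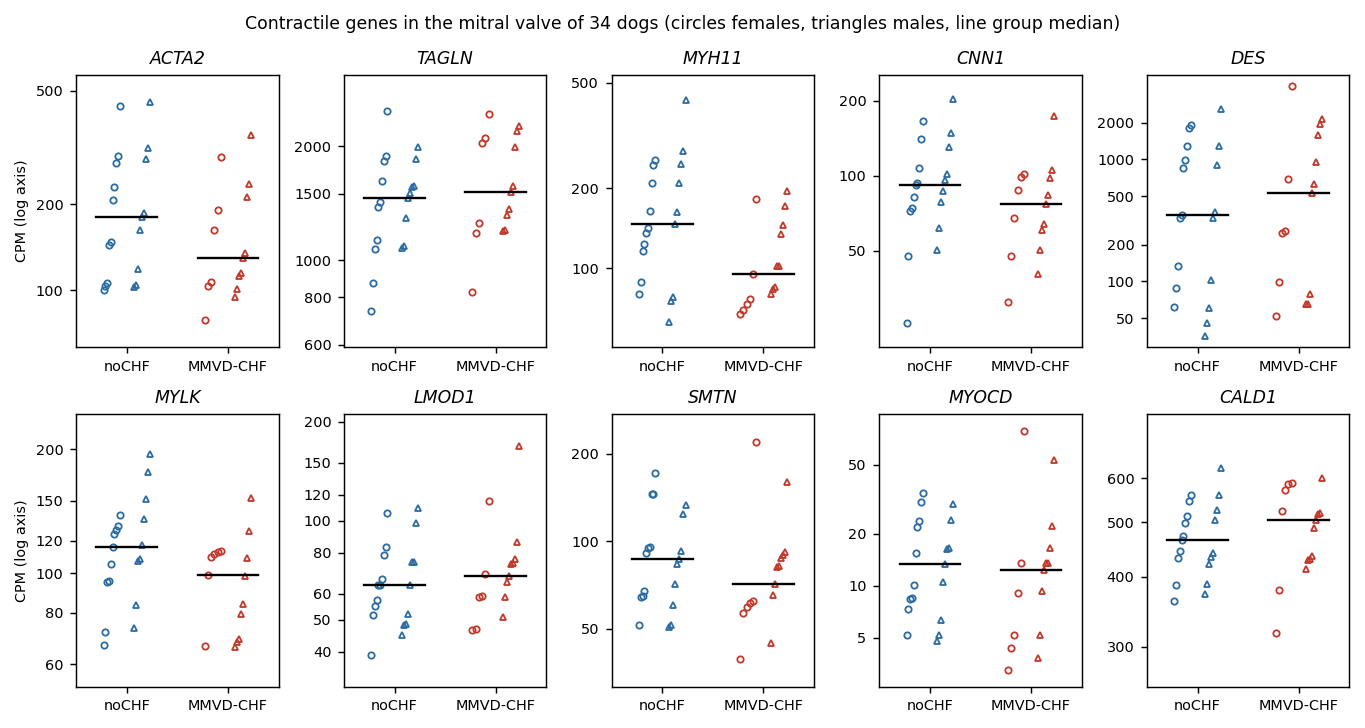
CPM (log axis) of each gene in each of 34 dogs, with circles for females, triangles for males and a line at the group median. The groups overlap in every panel, and DES and MYOCD spread far more widely than CALD1 within both groups.

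ACTA2 encodes smooth muscle alpha-actin, the usual marker of activated valve interstitial cells (canFam4, chr26:38990554-39001548, minus strand). In 10y-noCHF it ran from 99.9 CPM in CAV1732 through a median of 180 CPM to 456 CPM in CAV1049. In 10y-MMVD-CHF it ran from 78.7 CPM in CAV1872 through a median of 130 CPM to 350 CPM in CAV487. The lowest dog of all had CHF and the highest had not, but most dogs of both groups shared the same range, with 10 of 15 10y-MMVD-CHF dogs under the 10y-noCHF median. Group means were 161 ± 80.1 CPM (SD, n = 15) with CHF and 209 ± 111 CPM (SD, n = 19) without. The log2 fold change was -0.38 with a 95% interval from -0.87 to 0.11 (edgeR FDR = 0.848), so neither a fall to 0.547-fold nor a level 1.08-fold as high lay outside the interval.

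MYH11, the smooth muscle myosin heavy chain and the most restrictive marker of differentiated smooth muscle among the 10 genes, stood furthest from 0 (chr6:28303297-28418683, plus strand). It ran from 62.7 CPM in CAV749 through a median of 147 CPM to 430 CPM in CAV1049 in 10y-noCHF. In 10y-MMVD-CHF the values ran from 67.1 CPM in CAV1872 through a median of 95.03 CPM to 196 CPM in CAV487. Of the 15 10y-MMVD-CHF dogs, 12 lay under the 10y-noCHF median, although the lowest dog of all belonged to 10y-noCHF. The means were 111 ± 43.7 CPM (SD, n = 15) and 171 ± 92.0 CPM (SD, n = 19). The log2 fold change was -0.67 with a standard error of 0.22 and an interval from -1.13 to -0.21. Its unadjusted p was 0.00514 and its edgeR FDR 0.480, and it ranked 207 among all features by p. Under the other settings with both sexes or 1 sex the log2 fold change stayed between -0.78 and -0.62, with an FDR of 0.213 or more, the smallest from DESeq2. With each dog left out in turn it ranged from -0.79 without CAV1047 to -0.54 without CAV1049, and the FDR from 0.282 to 0.712.

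Part of the MYH11 count was shared with a neighbour. NDE1 lies on the opposite strand and its feature overlaps that of MYH11 over 14357 bases, 12.4% of the MYH11 feature. The counting used no strand and gave a read to every feature it overlapped, so reads in this stretch were counted for both genes. NDE1 held 72.5% as many counts as MYH11, followed it over the 34 dogs (Spearman rho 0.986) and had a log2 fold change of -0.57. A second NDE1 feature, made of canine RefSeq exons, overlapped MYH11 over 209 bases only. It followed MYH11 with a rho of 0.646, and its log2 fold change was -0.09 (edgeR FDR = 0.944). How many of the shared reads came from NDE1 was not tested.

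TAGLN encodes transgelin (SM22), an actin cross-linking protein that appears early when cells turn into myofibroblasts (chr5:16415104-16422743, minus strand). It ran from 737 CPM in CAV748 through a median of 1462 CPM to 2476 CPM in CAV1790 in 10y-noCHF, and from 827 CPM in CAV1876 through 1519 CPM to 2433 CPM in CAV1196 in 10y-MMVD-CHF. Both groups thus covered nearly the same range, and 8 of 15 dogs with CHF lay above the 10y-noCHF median. Its log2 fold change was 0.15 with an interval from -0.15 to 0.46 (edgeR FDR = 0.926). The TAGLN feature shares 2897 bases, 37.9% of its length, with PCSK7 on the other strand, and the counts of both features had a Spearman rho of 0.993 over the dogs.

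CNN1, or calponin 1, binds actin and slows the myosin motor (chr20:50228605-50235106, minus strand). In 10y-noCHF it ran from 25.6 CPM in CAV748 through a median of 91.5 CPM to 204 CPM in CAV1049, and in 10y-MMVD-CHF from 31.2 CPM in CAV1876 through 77.3 CPM to 174 CPM in CAV487. The dogs with CHF lay somewhat lower, 10 of 15 under the 10y-noCHF median, within a shared range. For CNN1 the log2 fold change was -0.33 with an interval from -0.78 to 0.11 (edgeR FDR = 0.853).

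CALD1 encodes caldesmon, which restrains the actin filament in smooth muscle and exists in a shorter form in most other cells (chr16:12748780-12937031, minus strand). It was the steadiest of the 10 genes. Its highest dog, CAV1049 with 625 CPM, had 1.97 times the level of its lowest, CAV1047 with 318 CPM. The 10y-noCHF dogs ran from 362 to 625 CPM with a median of 464 CPM, and the 10y-MMVD-CHF dogs from 318 to 600 CPM with a median of 505 CPM. Between the groups the log2 fold change was 0.05, with an interval from -0.12 to 0.22, the narrowest of the 10 (edgeR FDR = 0.964). A change beyond 0.918-fold or 1.16-fold therefore lay outside the interval. The feature covers the whole gene, so its isoforms were not told apart.

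LMOD1, leiomodin 1, starts new actin filaments in smooth muscle (chr7:1152924-1188894, plus strand). The 10y-noCHF dogs ran from 39.1 CPM in CAV1732 through a median of 63.9 CPM to 109 CPM in CAV1049. In 10y-MMVD-CHF it ran from 46.5 CPM in CAV1876 through 68.2 CPM to 169 CPM in CAV614. The 2 highest dogs, CAV614 and CAV1196, had CHF, and the others of both groups shared the same range. LMOD1 had a log2 fold change of 0.12 with an interval from -0.20 to 0.44 (edgeR FDR = 0.953), and without CAV614 it was 0.0034.

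SMTN, smoothelin, is an actin-associated protein of contractile smooth muscle (chr26:24495113-24517587, plus strand). It ran from 50.7 CPM in CAV749 through a median of 86.8 CPM to 172 CPM in CAV748 without CHF. With CHF it ran from 39.5 CPM in CAV1872 through 71.2 CPM to 220 CPM in CAV1047. The extremes of both kinds were dogs with CHF, and 10 of the 15 lay under the 10y-noCHF median. With an interval from -0.52 to 0.33, the log2 fold change of SMTN was -0.09 (edgeR FDR = 0.972), and it was -0.32 without CAV1047.

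MYLK encodes myosin light chain kinase, the enzyme that switches smooth muscle myosin on (chr33:27348320-27618922, minus strand). Its 10y-noCHF values ran from 66.7 CPM in CAV748 through a median of 115 CPM to 195 CPM in CAV1049, and its 10y-MMVD-CHF values from 66.2 CPM in CAV828 through 98.7 CPM to 152 CPM in CAV487. Of the 15 dogs with CHF, 13 lay under the 10y-noCHF median, but the lowest values of the groups were nearly equal. The log2 fold change was -0.26 with an interval from -0.54 to 0.01 (unadjusted p = 0.0579, edgeR FDR = 0.797). It was -0.43 in males and -0.07 in females, and the interaction of CHF and sex was 0.36 with an unadjusted p of 0.191 and an edgeR FDR of 0.900.

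DES encodes desmin, the intermediate filament of muscle cells of every kind, and was measured here over 9 exons (chr37:25809192-25815585, plus strand, 1419 exonic bases). The 10y-noCHF dogs ran from 35.9 CPM in CAV749 through a median of 351 CPM to 2579 CPM in CAV865. The 10y-MMVD-CHF dogs ran from 51.8 CPM in CAV1196 through 533 CPM to 3963 CPM in CAV1047. The highest dog thus had 110 times the level of the lowest, and each group spanned nearly the whole range. The log2 fold change of 0.35 had an interval from -0.93 to 1.63 (edgeR FDR = 0.965), which holds both a fall to 0.524-fold and a rise to 3.10-fold. It was -0.30 without CAV1047.

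MYOCD, myocardin, is the coactivator of serum response factor that drives smooth muscle and heart muscle genes, and it was the least abundant of the 10 in counts (chr5:36893295-36993388, plus strand). It ran from 4.83 CPM in CAV444 through a median of 13.4 CPM to 34.2 CPM in CAV1114 without CHF, and from 3.27 CPM in CAV1196 through 12.4 CPM to 78.4 CPM in CAV1047 with CHF. The medians were close and the extremes were both dogs with CHF. The log2 fold change of 0.22 had an interval from -0.57 to 1.01 (edgeR FDR = 0.964) and was -0.34 without CAV1047. The antisense gene ARHGAP44-AS1 shares 8401 bases with the feature, and its counts had a Spearman rho of 0.988 with those of MYOCD.

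**Figure D2:**
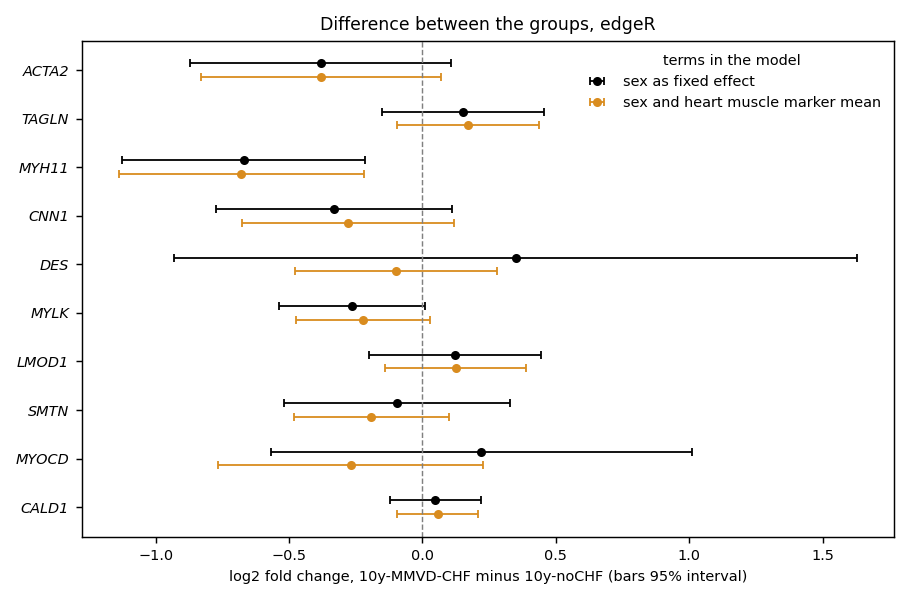
Log2 fold change of each gene between 10y-MMVD-CHF (n = 15) and 10y-noCHF (n = 19) with its 95% interval, from edgeR with sex alone (black) and with sex and the heart muscle marker mean (orange) in the model. MYH11 is the gene whose intervals lie wholly below 0, and the DES interval narrows most when the marker mean is added.

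A single dog was often extreme in several genes. CAV1049, a male without CHF, was the highest of 34 dogs for 5 genes, ACTA2, MYH11, CNN1, MYLK and CALD1. It also had the second highest hemoglobin level, 1030 CPM, whose part in these values was not tested. CAV1047 was the highest for 3, DES, SMTN and MYOCD, and the lowest for CALD1. After group and sex means were removed, the SD of log2 CPM between dogs was 0.24 for CALD1, 0.39 for MYLK, 0.43 for TAGLN, 0.44 for LMOD1, 0.58 for SMTN, 0.65 for MYH11 and CNN1, 0.68 for ACTA2, 1.10 for MYOCD and 2.02 for DES. The median over the 11686 features with a mean of at least 10 CPM was 0.22, below the SD of each of the 10 genes. Over all 19568 features it was 0.32, above the SD of CALD1 alone.

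Females and males did not differ detectably. None of the 10 genes passed an edgeR FDR of 0.1 for female minus male, against 0.143% of all features, none had an unadjusted p below 0.05, against 2.98%, and DESeq2 and limma voom called 0. The largest difference without regard to sign was that of MYH11, at -0.32 with an interval from -0.76 to 0.13. Its mean was 133 ± 62.4 CPM (SD, n = 16) in females and 155 ± 92.9 CPM (SD, n = 18) in males. For the interaction of CHF and sex, edgeR called none of the 10 genes and 0 of all features, and none of the 10 had an unadjusted p below 0.05, a level that 6.02% of all features reached. DESeq2 called 0 of the 10 genes and 3 features for the interaction.

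Most of the 10 genes went up or down with the amount of heart muscle RNA in the sample. This amount was measured as the average over the 19 cardiomyocyte markers of their log2 CPM, with none of the 10 genes among them, and it ran from -0.17 in CAV749 to 10.4 in CAV1047. The widest gap between neighbouring dogs was 1.35 and had 11 dogs below it. With this mean added to sex and CHF as a continuous term, 9 of the 10 genes passed an edgeR FDR of 0.1, and 37.9% of all features did. DES, MYOCD and SMTN were higher in dogs with more heart muscle RNA, as 19.2% of features were. ACTA2, TAGLN, CNN1, MYLK, LMOD1 and CALD1 were lower, as 18.7% of features were. In bulk tissue, fewer cells of a type and less RNA per cell cannot be told apart.

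**Figure D3:**
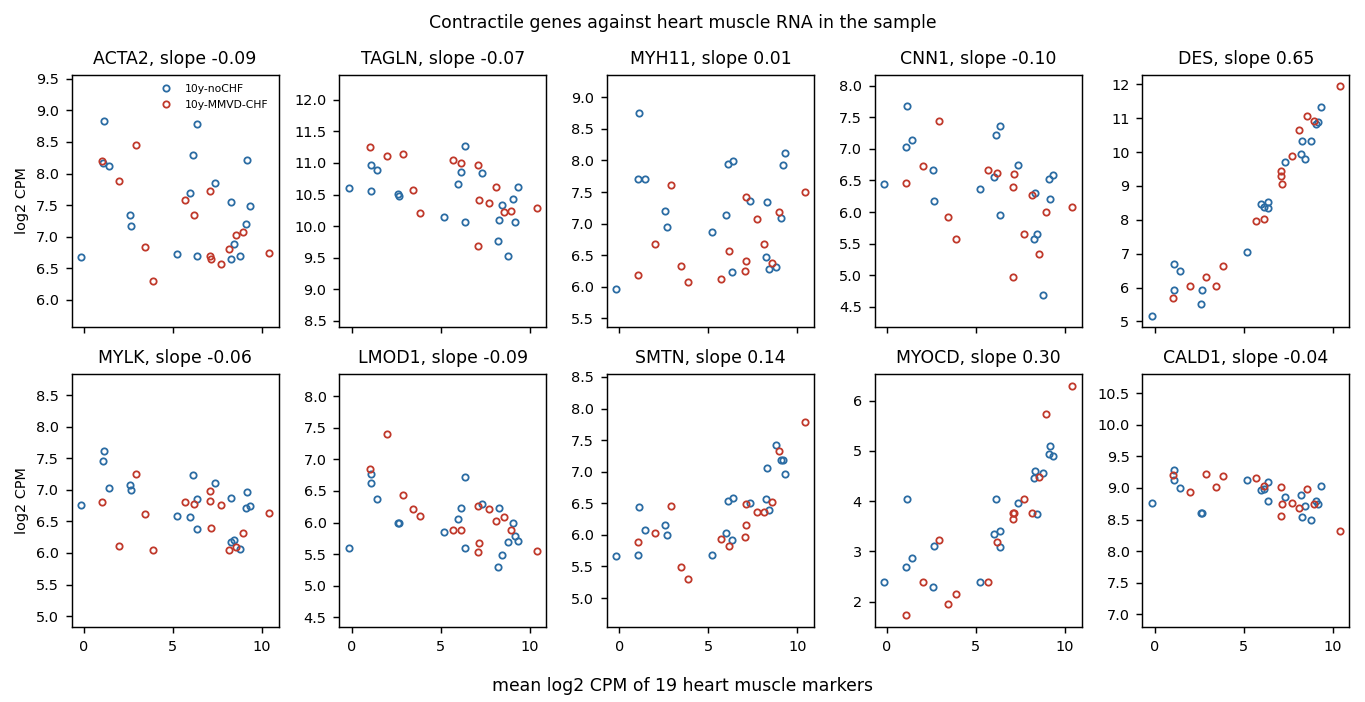
Log2 CPM of each gene against the mean log2 CPM of 19 heart muscle markers in each dog, blue for 10y-noCHF and red for 10y-MMVD-CHF, with edgeR's slope (log2 units per unit of the marker mean) above each panel. DES, MYOCD and SMTN follow the marker mean closely among the 23 dogs above its widest gap and not among those below it, and the other 7 genes are flat or fall slightly.

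DES gained 0.65 log2 units per log2 unit of the marker mean (95% interval 0.58 to 0.71, edgeR FDR = 1.24e-17). Its log2 CPM, with group and sex means removed, had a Pearson r of 0.965 and a Spearman rho of 0.961 with the marker mean. Both had a permutation p of 1e-05, the smallest that 100000 resamples can give, and r was 0.961 without the 2 dogs farthest from the median marker mean, 0.978 within 10y-MMVD-CHF and 0.960 within 10y-noCHF. Above the widest gap in the marker mean the 23 dogs had nearly the same order in DES as in the markers (rho 0.968), and below it the 11 dogs had not (rho 0.264).

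MYOCD had a slope of 0.30 (interval 0.22 to 0.38, edgeR FDR = 1.43e-07) and SMTN a slope of 0.14 (interval 0.10 to 0.19, edgeR FDR = 7.65e-06). The Spearman rho with the marker mean was 0.835 for MYOCD and 0.757 for SMTN, with Pearson r values of 0.810 and 0.718, and r stayed at 0.781 and 0.705 without the 2 farthest dogs (permutation p from 1e-05 to 3e-05). As for DES, the relation was close among the dogs above the widest gap in the marker mean and not among those below it. The step between the sides also enters the values over all dogs. In the 23 dogs above it, rho was 0.902 for MYOCD and 0.841 for SMTN. In the 11 dogs below it, rho was 0.082 for MYOCD and -0.264 for SMTN, given as a description without a test. All 3 genes passed the FDR threshold in each group of dogs taken alone and without CAV1047 and CAV614.

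The 6 lower genes had shallow slopes, from -0.10 for CNN1 to -0.04 for CALD1. LMOD1 had a slope of -0.09 (edgeR FDR = 0.00158), TAGLN of -0.07 (FDR = 0.0129), CALD1 of -0.04 (FDR = 0.0162), CNN1 of -0.10 (FDR = 0.0226), MYLK of -0.06 (FDR = 0.0386) and ACTA2 of -0.09 (FDR = 0.0496). The ACTA2 call was lost without CAV1049 (slope -0.08, FDR = 0.134), without CAV1196 (-0.08, FDR = 0.129), without both CAV1047 and CAV614 (-0.09, FDR = 0.108) and with limma voom (-0.08, FDR = 0.129). In the 10y-noCHF dogs alone only MYLK of these 6 passed, and in the 10y-MMVD-CHF dogs alone ACTA2, TAGLN, LMOD1 and CALD1 passed. CNN1 passed in neither, with slopes of -0.098 and -0.100 as steep as in all dogs. The slopes without CHF and with it were -0.060 and -0.149 for ACTA2, -0.054 and -0.100 for TAGLN, -0.061 and -0.144 for LMOD1 and -0.022 and -0.070 for CALD1, and for MYLK -0.028 with CHF. Whether the slopes differed between the groups was not tested. All 10 markers of valve interstitial cells were lower with more heart muscle RNA as well, with a median slope of -0.08. So were 7 of 10 macrophage markers at that FDR, with all 10 slopes below 0 and a median of -0.07. The part of these cell types in the slopes of the 6 genes was not tested.

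MYH11 was the exception, with a slope of 0.01 (interval -0.07 to 0.08, edgeR FDR = 0.900). Its slope was 0.06 in 10y-MMVD-CHF dogs and -0.03 in 10y-noCHF dogs, neither of them past the threshold, and it turned to -0.002 with upper-quartile scaling.

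With the heart muscle marker mean in the model, the CHF comparison again called none of the 10 genes, against 0.153% of all features. DES went from a log2 fold change of 0.35 to -0.10 and its interval shrank to -0.48 to 0.28. That of MYOCD went from 0.22 to -0.27 (interval -0.77 to 0.23) and that of SMTN from -0.09 to -0.19 (interval -0.48 to 0.10). MYH11 was at -0.68 (unadjusted p = 0.00508, edgeR FDR = 0.381) and was the 1 gene with an unadjusted p below 0.05, as 7.71% of all features had, with ACTA2 at -0.38 and MYLK at -0.22. Of the 10 fold changes, 7 were then below 0, with a median of -0.21 beside -0.001 over all features.

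Markers of other cell types were set beside the 10 genes in the same dogs. Over the 50 relations of 10 genes with 5 marker lists, MYLK followed the valve interstitial cell list most closely among the genes (Spearman rho 0.725, permutation p = 3e-05, BH adjusted over the 50 relations 0.00025). Its Pearson r was 0.7096 (permutation p = 2e-05), 0.644 without the 2 farthest dogs, 0.667 within 10y-MMVD-CHF and 0.737 within 10y-noCHF. TAGLN had a rho of 0.554, CNN1 of 0.467, CALD1 of 0.371 and LMOD1 of 0.367 with this list (adjusted p = 0.00342, 0.0182, 0.0659 and 0.0747). DES, SMTN and MYOCD ran against it, with rho of -0.688, -0.598 and -0.592. They ran against the macrophage list too, with rho of -0.432, -0.590 and -0.463 (adjusted p from 0.00342 to 0.0337), the only calls with that list among the 10 genes. With the endothelial list, DES and MYOCD were positive (rho 0.403 and 0.358) and TAGLN, CNN1 and MYLK negative (rho -0.496, -0.402 and -0.362) at an adjusted p below 0.1. With the list of pericyte and vessel wall markers, DES, SMTN and MYOCD had rho of 0.837, 0.729 and 0.777. MYH11 was also positive at an adjusted p below 0.1 (rho 0.338, adjusted p = 0.0992), and ACTA2 was not (rho 0.050, adjusted p = 0.809). ABCC9 of that list is also a heart muscle gene, and 4 of its 10 genes rose with the heart muscle marker mean, so that vessel wall and heart muscle content cannot be told apart with it.

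Correlations between the genes were counted with the genes grouped by the direction of their slope, with MYH11 placed among those that were not higher. Opposite slopes by themselves give positive pairs within such blocks and negative pairs across them, so the counts before the marker mean was removed are a description only. Of the 21 pairs among ACTA2, TAGLN, MYH11, CNN1, MYLK, LMOD1 and CALD1, 20 had a positive Spearman correlation at an FDR below 0.1, over 45 pairs in all, with rho from 0.229 to 0.881 over the 21. The 3 pairs among DES, SMTN and MYOCD had rho from 0.772 to 0.900. Across the blocks 2 of 21 pairs were positive and 9 negative. After the heart muscle marker mean was removed as well, 17 of 21 and 3 of 3 pairs within the blocks were positive at that FDR, and across the blocks 4 were positive and 0 negative. The median rho across the blocks was -0.23 before and 0.23 after. All these values come from the same libraries and share their scaling. The share of correlated pairs among other features was not worked out, so the counts after the marker mean was removed are a description as well.

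**Figure D4:**
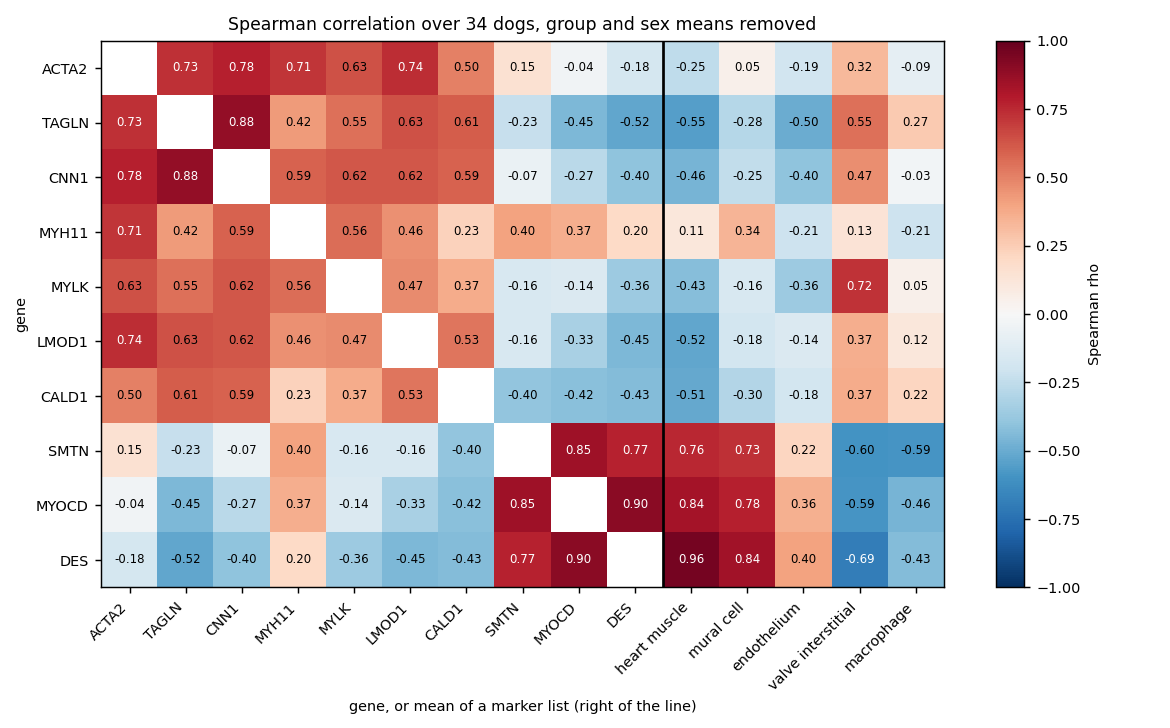
Spearman rho of log2 CPM over 34 dogs, with group and sex means removed, between the 10 genes (left of the line) and with the mean of 5 marker lists (right of it). The block of ACTA2, TAGLN, CNN1, MYH11, MYLK, LMOD1 and CALD1 runs from 0.23 to 0.88, and SMTN, MYOCD and DES follow the heart muscle list at 0.76 to 0.96.

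TAGLN and CNN1 were the closest pair of the larger block, with a Pearson r of 0.875 and a Spearman rho of 0.881 (permutation p = 1e-05 for both). It held at 0.834 without the 2 farthest dogs, at 0.856 within 10y-MMVD-CHF and at 0.893 within 10y-noCHF. CALD1 and MYH11 were the loosest pair of that block, with r = 0.237 and rho = 0.229 (permutation p = 0.202 and 0.217). Their r was 0.590 within 10y-noCHF and -0.318 within 10y-MMVD-CHF. In the test of group differences described next, this pair did not pass (permutation p = 0.0136, FDR = 0.122).

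In some pairs the relation was tight without CHF and loose with it. In a test chosen after the data had been seen, group labels were permuted within each sex and Pearson r was compared between the groups. Of all 45 pairs, 4 had an FDR below 0.1. Group and sex means were removed first, but the heart muscle marker mean was not, and its part in these differences was not tested. ACTA2 and MYH11 had r = 0.908 in the 19 10y-noCHF dogs and 0.258 in the 15 10y-MMVD-CHF dogs (permutation p = 0.00284, FDR = 0.0639). MYLK and LMOD1 had r = 0.821 and -0.02 (permutation p = 0.00208, FDR = 0.0639). MYH11 and LMOD1 had r = 0.749 and -0.13, and CNN1 and LMOD1 had 0.816 and 0.359 (FDR = 0.0844 for both). Without CAV1047 and CAV614 no pair passed, with an FDR of 0.121 for MYLK and LMOD1 and from 0.244 to 0.260 for the other 3, although each difference kept its sign. The difference for ACTA2 and MYH11 was -0.65 with all dogs and -0.45 without CAV1047 alone.

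**Figure D5:**
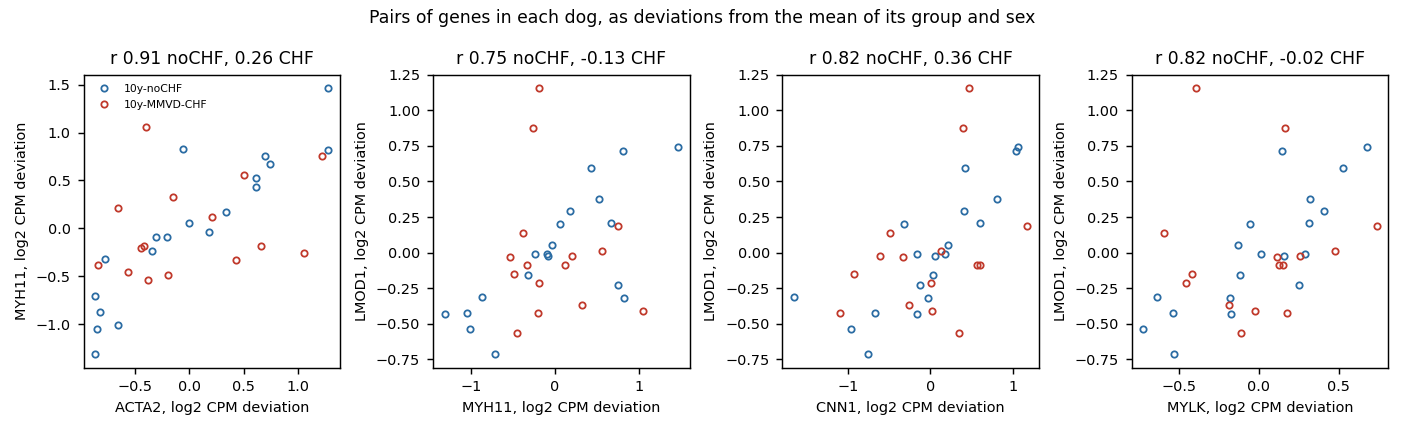
Deviation of log2 CPM from the mean of the same group and sex for 4 pairs of genes, 1 point per dog, blue for 10y-noCHF (n = 19) and red for 10y-MMVD-CHF (n = 15), with Pearson r above each panel. The blue points lie along a line, with r from 0.75 to 0.91, and the red points scatter, with r from -0.13 to 0.36.

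By pattern over the 34 dogs, the features most like ACTA2, among 16171 with a mean of at least 1 CPM and apart from the 10 genes, were ACTG2 (Spearman rho 0.848), HEYL (0.810), TGFB1I1 (0.783), SUSD2 (0.759) and NOTCH3 (0.750). ACTG2 is the smooth muscle gamma-actin, and NOTCH3 and HEYL belong to the Notch pathway of vessel wall cells. NOTCH3 and HEYL are also in the list of pericyte and vessel wall markers, with whose mean ACTA2 had a rho of only 0.050. Those most like MYH11 were EFHD1 (0.849), ACTG2 (0.778), ADRA1A (0.727), THRB (0.725) and HSPB6 (0.724). ADRA1A is an adrenergic receptor and HSPB6 a small heat shock protein of muscle.

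Other genes of the same machinery gave the CHF comparison more depth. Of 18 further genes of the smooth muscle contractile apparatus, edgeR called 0 at an FDR of 0.1, against 0.118% of all features. At an unadjusted p below 0.05 there were 2, both lower, as 3.51% of all features were. The median log2 fold change was 0.02, beside 0.01 over all features. ACTG2 had 27.6 ± 20.4 CPM (SD, n = 15) with CHF and 52.9 ± 32.6 CPM (SD, n = 19) without. Its log2 fold change was the lowest of the list, at -1.01 (unadjusted p = 0.0022, edgeR FDR = 0.398). PDLIM3, an actin-associated LIM protein, had a log2 fold change of -0.24 (p = 0.0318, edgeR FDR = 0.746) and SYNPO2, an actin-bundling protein, of 0.18 (edgeR FDR = 0.857). With the heart muscle marker mean, 5 of the 18 were higher and 11 lower at an edgeR FDR of 0.1, beside 19.2% and 18.7% of all features.

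Among 11 kinases, phosphatase subunits and regulators that set myosin light chain phosphorylation, edgeR called 0 for CHF and none had an unadjusted p below 0.05. Of all features 0.118% were called and 6.31% had such a p. The smallest p values were those of PPP1CB, a myosin phosphatase catalytic subunit, with a log2 fold change of 0.15 (edgeR FDR = 0.813), PRKG1, the cyclic GMP-dependent kinase, with -0.24 (FDR = 0.834), and PPP1R14A, a phosphatase inhibitor, with -0.93 (standard error 0.54, FDR = 0.838). MYLK itself lay below 0 beside them, at -0.26.

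The serum response factor axis, which switches contractile genes on and through which MYOCD acts, had 8 genes tested. None was called by edgeR for CHF, against 0.118% of all features. At an unadjusted p below 0.05, 1 was higher and 1 lower, and 6.31% of all features had such a p in either direction. MRTFB, a coactivator related to MYOCD, had 162 ± 31.1 CPM (SD, n = 15) with CHF and 134 ± 21.5 CPM (SD, n = 19) without, and a fold change of 0.29 on the log2 scale (p = 0.00194, edgeR FDR = 0.395). KLF4, a repressor of smooth muscle genes, had a log2 fold change of -0.26 (p = 0.0221, edgeR FDR = 0.696) and MEF2C, a muscle transcription factor, of 0.14 (edgeR FDR = 0.884).

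The list of 11 genes of activated interstitial cells, matrix and cytoskeletal genes that accompany ACTA2 in myofibroblasts, held no gene called by edgeR for CHF and none with an unadjusted p below 0.05. The shares of all features were 0.118% and 6.31%. Its median log2 fold change was -0.09, with 4 genes above 0 and 7 below. S100A4, a calcium-binding protein of activated fibroblasts, was at -0.28 (edgeR FDR = 0.826), TNC, or tenascin C, at -0.36 (FDR = 0.838) and THY1, a fibroblast surface protein, at -0.20 (FDR = 0.864). TNC was at -0.81 in males and 0.17 in females, and the interaction of CHF and sex was above 0 for all 11 genes, as for 9896 of 19568 features. Of the 11 genes 4 had an unadjusted p below 0.05 for it, as 6.02% of all features had, and edgeR called 0. The same direction was seen in 10 of 10 valve interstitial cell markers and 9 of 10 macrophage markers. VIM and THY1 are both among the 11 genes and among the valve interstitial cell markers, so these counts are not independent.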

How the data were processed

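The authors mapped paired reads of poly-A RNA to canFam4 (UU_Cfam_GSD_1.0) with STAR and counted them with featureCounts 2.0.3 on canine RefSeq genes and human XenoRefSeq alignments. The deposited values are raw counts. Per the file headers, a read was counted for every feature it overlapped, strand was ignored and the reads of a pair were counted separately, and 71.2% of the counts above 0 of the 10 genes were even. Except for DES, the features of the 10 genes are whole intervals with introns. A further 1 column, of no labelled sample, was left out.

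Features that reached 100 counts over all dogs together were tested with edgeR 4.0.16 (quasi-likelihood, TMM, sex as fixed effect, FDR threshold 0.1) in R 4.3.3. The heart muscle gradient was the coefficient of the mean log2 CPM (prior count 2) of the marker list beside sex and group. Standard errors derive from the test statistic. Correlations used log2 CPM with group and sex means removed and two-sided permutations within group and sex (100000 resamples), adjusted by Benjamini-Hochberg. Alternatives were DESeq2 1.42.0, limma 3.58.1 voom with sample weights, other normalizations and filters, each sex or group alone, covariates and leaving out dogs. The group tests of edgeR, DESeq2 and limma voom and the edgeR gradient were tried on simulated counts, and the permutation tests were not. No pair of libraries agreed within sampling noise (smallest chi-square per feature 46.1 over 561 pairs).

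All 10 genes are named. From each pathway list the 3 genes of smallest p for CHF are named, and for ACTA2 and MYH11 the 5 features of the highest Spearman correlation. The members, lists and rules were chosen with earlier results of these data known.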

Additional observations from a re-analysis of the deposited data

Results flagged for a closer look

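Each gene was tested for a dog at a distance from the rest of its stratum of group and sex. The measure was the gap to the next dog over the range of the stratum, both in log2 CPM. Of 40 such tests 4 stood out, where about 2 are expected by chance at 1 in 20. In 10y-MMVD-CHF females (n = 6), CAV1047 was the highest for MYH11, at 182 CPM with the next dog at 95.03 CPM (gap over range 0.651), and for SMTN, at 220 CPM with the next at 62.6 CPM (0.732). This dog also had the highest heart muscle marker mean, and whether that bears on MYH11 and SMTN here was not tested. In the same females CAV1872 was the lowest for MYLK, at 66.4 CPM with the next at 98.7 CPM (0.744). In 10y-MMVD-CHF males (n = 9), CAV614 was the highest for LMOD1, at 169 CPM with the next at 86.4 CPM (0.562). CAV614 was also the dog with the most hemoglobin RNA, and its part in the LMOD1 value was not tested.

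The correlation of 4 pairs of genes differed between 10y-MMVD-CHF and 10y-noCHF at an FDR below 0.1 (group labels permuted within each sex, 45 pairs, chosen after the data had been seen). The heart muscle marker mean was not removed for this test. The difference in Pearson r, with CHF minus without, was -0.6502 for ACTA2 and MYH11, -0.8811 for MYH11 and LMOD1, -0.4573 for CNN1 and LMOD1 and -0.8447 for MYLK and LMOD1. With each dog left out in turn, it ranged from -0.87 to -0.45, from -0.99 to -0.73, from -0.54 to -0.37 and from -0.92 to -0.56, in the same order. Without both CAV1047 and CAV614 none of the 4 passed, with an FDR of 0.121 for MYLK and LMOD1 and from 0.244 to 0.260 for the others.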

How the results depend on the processing

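For CHF, 0 of the 10 genes were called under every alternative tried, including each of 34 dogs left out (0 to 0), while the number of all features called moved from 23 to 64 with DESeq2, to 13 without a sex term, to 0 in each sex alone and to between 8 and 28 with a dog left out. Some fold changes, none of them past the threshold, changed direction. DES went from a log2 fold change of 0.35 to -0.10 with the heart muscle marker mean, to -0.11 with the mural cell marker mean (added after seeing the data) and to -0.22 without CAV1047 and CAV614, and ranged from -0.30 to 0.72 with a dog left out. MYOCD went from 0.22 to -0.25 with limma voom, -0.27 with the heart muscle mean, -0.25 with the mural mean and -0.29 without both dogs, and ranged from -0.34 to 0.33 with a dog left out. LMOD1 was at -0.015 in females alone, SMTN at 0.037 in males alone and TNC at 0.17 in females alone.

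For the heart muscle gradient, 8 to 9 genes were called with a dog left out, when 6007 to 7743 of all features were called. In the 19 10y-noCHF dogs alone 4 genes were called, DES, SMTN, MYOCD and MYLK. In the 10y-MMVD-CHF dogs alone, the smaller group, ACTA2, TAGLN, LMOD1 and CALD1 were called beside DES, SMTN and MYOCD. Why the calls differed between the groups was not tested. The MYH11 slope was below 0 with upper-quartile scaling (-0.0024), in 10y-noCHF dogs alone (-0.029) and without CAV1047 and CAV614 (-0.014), and ranged from -0.0095 to 0.039 with a dog left out. For sex and for the interaction, 0 genes were called throughout (0 to 0 with a dog left out). Counts per gene and dog were at least 216, and even so the DES interval held changes from 0.524-fold to 3.10-fold between the groups. The size of a DES difference was thus only loosely fixed in the model with sex alone. With the heart muscle marker mean added, the DES interval ran from -0.48 to 0.28 on the log2 scale. Replicates carry dog names, so no paired analysis was possible because no dog is in both groups.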
